A study of Rattus norvegicus with 8 samples.

Results

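The Cyp4 fatty acid hydroxylases examined here were 8 rat genes, Cyp4a1, Cyp4a2, Cyp4a3, Cyp4a8, Cyp4b1, Cyp4f1, Cyp4f4 and Cyp4v3, chosen by name. They were read by 10 of the 30367 probes of the array: 2 probes each for Cyp4a8 and Cyp4v3 and 1 for each of the other genes. The 15168 gene symbols of the array include all 8. RNA came from liver of male rats aged 22 weeks, 5 samples after 14 weeks on a high-fat diet (disease state given as NAFLD, non-alcoholic fatty liver disease) and 3 after the same time on standard chow. Each sample was read on 1 single-colour array, and the labels name no strain, genotype or other treatment. Whether the samples are separate animals is not stated, so the p-values below reflect the spread among these samples, part of which may be technical.

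Cyp4 enzymes are cytochromes P450 of the endoplasmic reticulum that hydroxylate fatty acids at or next to the terminal methyl carbon. The hydroxy acid can be oxidised to a dicarboxylic acid, which peroxisomes shorten by beta-oxidation, so the pathway serves as a side route of fatty acid removal in liver. Genes of the 4A subfamily are classical targets of the nuclear receptor PPAR alpha and respond to fibrates and fasting. Members of the 4F subfamily act on leukotrienes and arachidonic acid as well as on long-chain fatty acids.

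The 4A genes and Cyp4b1 lie next to each other in the rat gene table of the GRCr8 assembly, in the order Cyp4x1, Cyp4a8, Cyp4a2, Cyp4a2l1, Cyp4a3, Cyp4a1, Cyp4b1 when only protein-coding genes are read. Cyp4f1 and Cyp4f4 lie on another chromosome among other 4F genes, and Cyp4v3 lies apart from both groups. RefSeq promoter windows of 300 bases (250 before and 50 after the start site, GRCr8) were at hand for 5 of the 8 genes. The windows of Cyp4a2 and Cyp4a3 were 93.1% identical over 305 aligned positions, and that of Cyp4a8 was 58.2% identical to Cyp4a2 and 58.7% to Cyp4a3. The window of Cyp4a2l1, not 1 of the 8 genes, aligned to that of Cyp4a2 over 336 positions, of which 264 were identical and 72 were gaps. The 120 bases before the start site are shown for Cyp4a2, Cyp4a3 and Cyp4a8. Cyp4a2 and Cyp4a3 were the closest pair among the 5 member windows, and Cyp4a8 had the only probe that passed the test below. All 3 stretches are on the minus strand and are written 5′ to 3′. Capitals mark AGGTCA, the hexamer that nuclear receptors such as PPAR alpha bind.
Cyp4a2, chr5:134170909-134171028: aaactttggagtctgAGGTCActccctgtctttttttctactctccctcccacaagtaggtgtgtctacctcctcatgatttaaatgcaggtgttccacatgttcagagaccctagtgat
Cyp4a3, chr5:134352237-134352356: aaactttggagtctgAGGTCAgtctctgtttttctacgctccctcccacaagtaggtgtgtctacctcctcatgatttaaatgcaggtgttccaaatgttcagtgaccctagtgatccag
Cyp4a8, chr5:133970227-133970346: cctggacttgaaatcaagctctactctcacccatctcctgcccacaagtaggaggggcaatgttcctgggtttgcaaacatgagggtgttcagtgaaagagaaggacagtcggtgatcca
On either strand the hexamer occurred in 16.2% of 33469 rat promoter windows of this length, and among the 5 member windows in those of Cyp4a2 and Cyp4a3. The direct repeat that PPAR alpha binds with its partner receptor, written as the hexamer, any 1 base and the hexamer again, was found in 0.0538% of all windows, or 3.77% with up to 2 mismatches, and in no member window with either rule. A missing match says only that these letters are not in this window.

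Values below are log2 signals from which the 75th percentile of the same array was subtracted, so the levels of different probes are not compared. All 10 probes were well above background on all 8 arrays. High-fat arrays had 79.1% to 92.8% of their probes above background and chow arrays 66.9% to 71.8%, and the 75th percentile signal was 725 to 1045 intensity units on the former and 278 to 559 on the latter. Hepatocyte markers, among them albumin and transthyretin, were above background on all arrays for 8 of 8 genes. The scan records hold 3 scan identifiers, which are taken as slides here. High-fat arrays 1 and 4 were on slide 1, high-fat arrays 2, 3 and 5 on slide 2 and all 3 chow arrays on slide 3. Slide 1 was scanned on another day than slides 2 and 3, so the 2 groups of high-fat arrays also differ by scan day. No slide held both diets, so slide and diet cannot be told apart. Precision is limited by how few arrays there are.

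The comparison of high-fat diet with chow asked which genes of lipid metabolism differ between fatty and normal liver. Among the 8 Cyp4 genes, each counted by its brightest probe, 1 passed, Cyp4a8, which rose 2.77-fold (limma, p adjusted over all 25632 probes tested). Of the 13340 named genes tested, 1.25% passed in that direction and 0.547% in the other. The other 7 genes had negative differences that did not pass, from -1.04 for Cyp4a1 to -0.07 for Cyp4v3. The median over the 8 genes was -0.28, against -0.04 over all named genes. The diets did not overlap for 4 of the 8 genes, 1 higher (Cyp4a8) and 3 lower (Cyp4a1, Cyp4b1 and Cyp4f4) on high-fat diet, and for 15.5% of all named genes (5.01% higher and 10.5% lower). By brightness, 5 of the 8 genes (Cyp4a1, Cyp4a2, Cyp4a3, Cyp4f1 and Cyp4f4) had probes in the brightest of 10 equal groups. Of these, Cyp4a1 and Cyp4f4 did not overlap between diets, while Cyp4a2, Cyp4a3 and Cyp4f1 did. Counted from the dimmest, Cyp4a8 and Cyp4v3 were in group 9 and Cyp4b1 in group 5. In the brightest group the median difference of all probes was -0.24, and 24% of named genes were lower without overlap. There 1.06% of named genes passed, all of them lower and 0% higher. The part of brightness in the Cyp4 counts was not tested. Unadjusted p was under 0.05 for 5 of the 8 genes, for 17.5% of all named genes and for 25.5% of those in the brightest group. After adjustment 1.8% of all named genes passed. Over all probes 884 passed (3.45%), 768 higher (3%) and 116 lower (0.453%), a split that became 849 and 306 after quantile normalization and 1114 and 1203 when a normexp background was added to it.

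**Figure D1:**
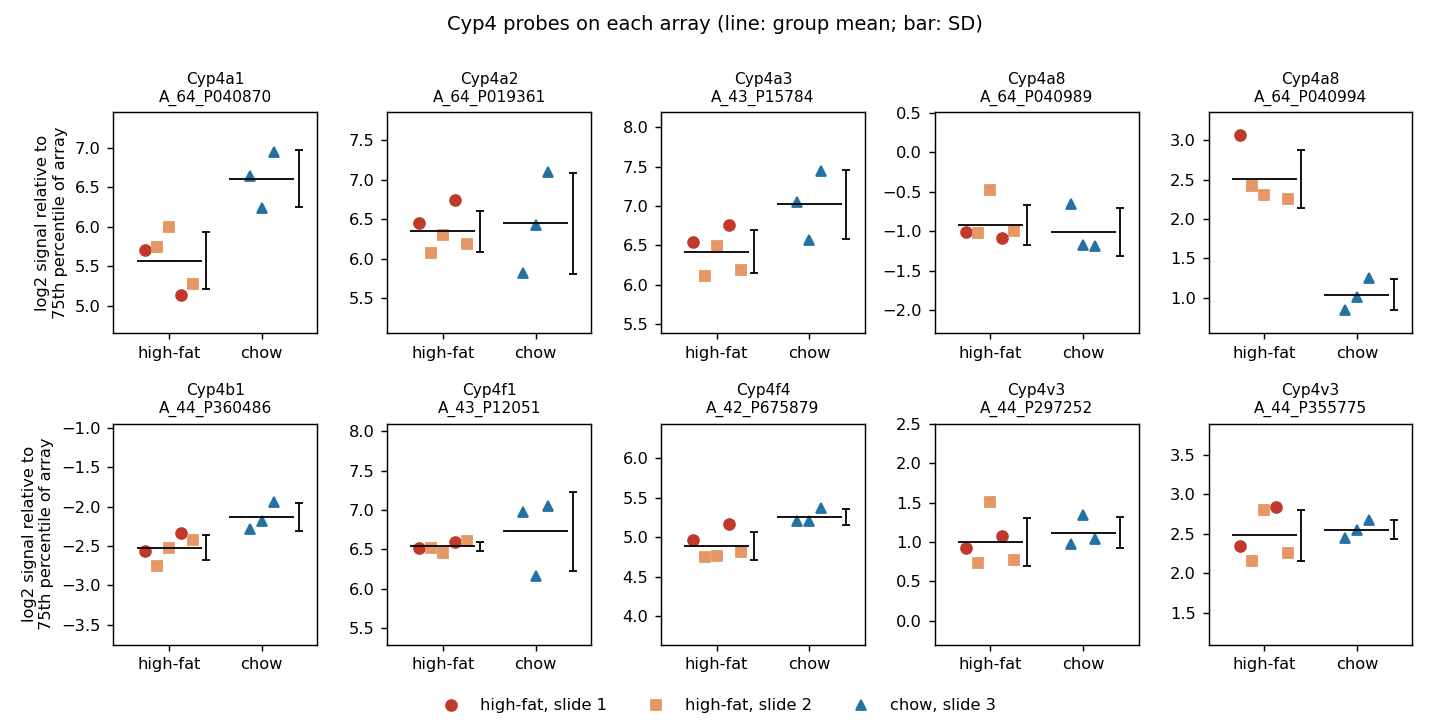
Log2 signal relative to the 75th percentile of the array (y axis) for the 10 Cyp4 probes on 5 high-fat and 3 chow arrays, coloured by slide; lines are group means and bars are SD, and all panels span the same log2 range. The 5 high-fat points of Cyp4a1 lie below its 3 chow points, and the 4 high-fat points of the Cyp4a8 probe A_64_P040994 lie above its chow points.

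Cyp4a8, a member of the 4A subfamily known from kidney and prostate, where androgens raise it, had the largest difference. Its probe A_64_P040994 read 3.06, 2.42, 2.30 and 2.25 on high-fat arrays 1, 2, 3 and 5 and 0.85, 1.01 and 1.25 on chow arrays 1 to 3. Every high-fat value was above every chow value, and high-fat array 1 stood highest. The spot on high-fat array 4 was marked as an outlier by the scanner software and left out, so the high-fat group had 4 values here; with that spot kept it read 3.06, the same as array 1. The means were 2.51 ± 0.37 (SD, n = 4) and 1.04 ± 0.20 (SD, n = 3), a log2 difference of 1.47 ± 0.24 (SE, 95% interval 0.92 to 2.02; limma adjusted p = 0.0195). The interval in folds ran from 1.89 to 4.06. With the high-fat arrays of slide 2 alone the difference was 1.28 (adjusted p = 0.00582). Slide 1 gave 1 value for this probe, array 1, because the spot of array 4 was left out; its difference from chow was 2.02, given as a value with no test. With slide as a random block it was 1.57 and did not pass (adjusted p = 0.157). The call was also lost without high-fat array 2 (adjusted p = 0.055) and without chow array 1, 2 or 3 (0.0818, 0.0695 and 0.0518), while the difference stayed between 1.37 and 1.58 in these 4 fits.

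The second Cyp4a8 probe, A_64_P040989, named by the same RefSeq accession, did not show this. It read -1.01, -1.02, -0.48, -1.09 and -1.0 on the high-fat arrays and -0.66, -1.17 and -1.19 on chow. The diets overlapped, and the means of -0.92 ± 0.25 (SD, n = 5) and -1.01 ± 0.30 (SD, n = 3) differed by 0.09 ± 0.20 (SE, 95% interval -0.37 to 0.54; limma adjusted p = 0.863). The gap between the probes on 1 array is the same whatever single value is subtracted from that array, but can change with quantile normalization. It was 4.07, 3.44, 2.78 and 3.25 on high-fat arrays 1, 2, 3 and 5 and 1.51, 2.18 and 2.45 on chow, wider on every high-fat array than on every chow array. The mean gap was 1.34 wider on high-fat diet (exact permutation p = 0.0571, two-sided, where 35 splits allow 0.0286 at best; 0.114 after Benjamini-Hochberg adjustment over the 2 genes with paired probes). With the outlier spot kept, high-fat array 4 had a gap of 4.19 and the exact p was 0.0179, the smallest that 56 splits allow. The probes thus gave different values for 1 gene, and a test of their difference depended on 1 spot. Probe sequences were not used here, so the transcripts or neighbouring copies that each probe reads were not tested; the gene table lists the pseudogene Cyp4a8-ps1 between Cyp4a8 and Cyp4a2.

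**Figure D2:**
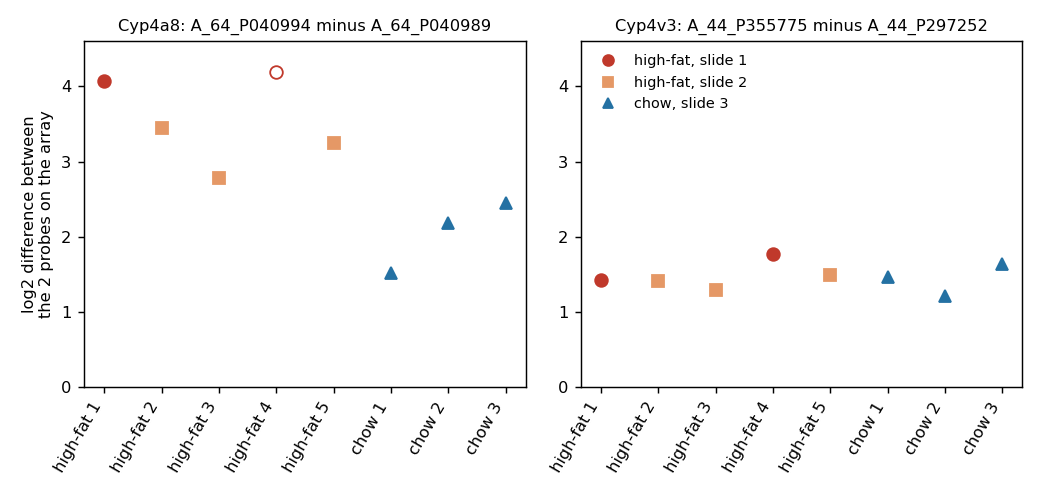
Log2 signal of one probe minus the other probe of the same gene on each of the 8 arrays, for Cyp4a8 (left) and Cyp4v3 (right), coloured by diet and slide; the open point is the Cyp4a8 spot marked as an outlier. The Cyp4a8 gap was 2.78 to 4.19 on the high-fat arrays and 1.51 to 2.45 on the chow arrays, while that of Cyp4v3 was 1.29 to 1.77 and 1.21 to 1.63.

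Since Cyp4a8 is abundant in kidney, kidney markers were read on the same arrays. Their summed signal, in multiples of the 75th percentile, was 0.584 to 1.07 on the high-fat arrays and 0.561 to 0.795 on the chow arrays. Of 6 measured kidney genes 0 passed, 6 had positive differences, and the median was 0.36. Of the 6, 3 were above background on all 8 arrays. An unadjusted limma p under 0.05 was found for 2 of the 6 and for 17.5% of all named genes. The 2 were Kap (0.97 ± 0.23 SE, adjusted p = 0.0628) and Nphs1 (1.15 ± 0.45 SE, adjusted p = 0.202), each above background on 5 of 8 arrays. The median difference of all probes was 0.53 in the dimmest of the 10 brightness groups, 0.19 in the next and 0 over all probes tested. The part of brightness in the kidney values was not tested. The part of the kidney genes in the Cyp4a8 result was not tested. Among the 10 other marker lists (liver cell types, blood and other tissues), 1 gene passed, the intestinal fatty acid binding protein Fabp2 (-1.04 ± 0.17 SE, adjusted p = 0.014).

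Cyp4a1, the lauric acid omega-hydroxylase that fibrates induce in rat liver, differed the other way without passing. It read 5.70, 5.75, 6.0, 5.13 and 5.28 on the high-fat arrays and 6.65, 6.24 and 6.95 on chow. All 5 high-fat values were below the lowest chow value. The means of 5.57 ± 0.36 (SD, n = 5) and 6.61 ± 0.36 (SD, n = 3) differed by -1.04 ± 0.25 (SE, 95% interval -1.61 to -0.47), a mean 2.06-fold lower on high-fat diet that did not pass (limma adjusted p = 0.0634). Of the 2564 probes in the brightest group, 0.234% had a difference as low or lower, Cyp4a1 included. Cyp4a1 was the lowest of the 8 Cyp4 genes, so this share is not a p-value. Values were -1.20 with the high-fat arrays of slide 1 alone and -0.94 with those of slide 2 alone (adjusted p = 0.0644 and 0.0591). Quantile normalization reduced the difference to -0.75 (adjusted p = 0.14), and array weights brought it past the threshold at -1.01 (0.0151). In bulk liver, fewer hepatocytes and less RNA in each cannot be told apart. Of 8 hepatocyte markers 0 passed and 8 had negative differences (median -0.32), with a summed signal of 410 to 489 on the high-fat arrays and 445 to 704 on the chow arrays; their part in the Cyp4a1 value was not tested.

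Cyp4a2 and Cyp4a3, which hydroxylate lauric and arachidonic acid and are best known from kidney, did not pass either. Cyp4a2 read 6.45, 6.07, 6.30, 6.74 and 6.19 on the high-fat arrays and 5.82, 6.43 and 7.10 on chow, where the lowest and the highest of all 8 values were found. Its means of 6.35 ± 0.26 (SD, n = 5) and 6.45 ± 0.64 (SD, n = 3) differed by -0.10 ± 0.29 (SE, 95% interval -0.76 to 0.55; limma adjusted p = 0.888). The sign turned to 0.21 after quantile normalization. Cyp4a3 read 6.54, 6.11, 6.49, 6.76 and 6.19 on the high-fat arrays and 7.05, 6.57 and 7.44 on chow. High-fat array 4 overlapped chow array 2, and the other 4 high-fat values were below all chow values. The means of 6.42 ± 0.27 (SD, n = 5) and 7.02 ± 0.44 (SD, n = 3) differed by -0.60 ± 0.23 (SE, 95% interval -1.14 to -0.07; adjusted p = 0.202), a value that shrank to -0.21 after quantile normalization. With array weights it was -0.81 and passed (adjusted p = 0.0269). Because Cyp4a2 and Cyp4a3 are close copies with a further copy, Cyp4a2l1, between them, their probes may share transcripts, which was not tested.

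Within an array, the 4A genes did not move by the same amount. The gap between Cyp4a1 and Cyp4a2 was -0.75, -0.32, -0.31, -1.61 and -0.91 on the high-fat arrays and 0.83, -0.19 and -0.16 on chow, lower on every high-fat array, although high-fat array 3 and chow array 2 were separated by little. The gap between Cyp4a1 and the brighter Cyp4a8 probe was 2.64 to 3.69 on 4 high-fat arrays and 5.22 to 5.80 on chow, a mean change of -2.40. Cyp4a1 against Cyp4a3 overlapped between diets (-1.63 to -0.36 and -0.49 to -0.33). These gaps do not depend on the single value subtracted from each array, but can change with quantile normalization. They were chosen for description after the values were seen and carry no test.

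**Figure D3:**
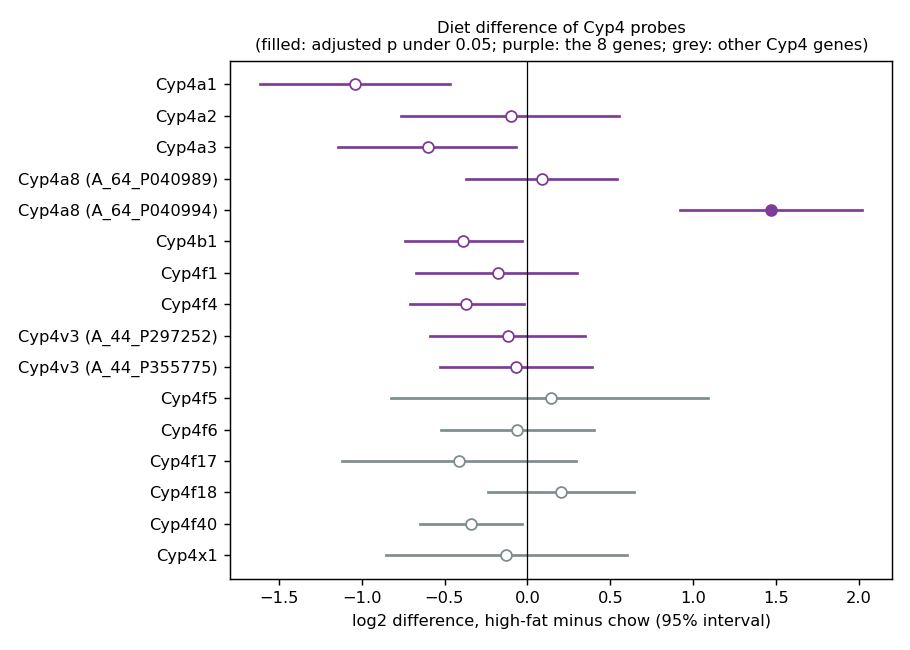
Log2 difference, high-fat minus chow (x axis), with its 95% interval from limma for the 10 probes of the 8 Cyp4 genes and for 6 other Cyp4 genes of the array; filled points passed an adjusted p of 0.05. One probe is filled, A_64_P040994 of Cyp4a8 at 1.47, and Cyp4a1 at -1.04 is the lowest point.

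Cyp4b1, an enzyme abundant in lung that activates several toxins as well as hydroxylating fatty acids, read -2.56, -2.76, -2.53, -2.34 and -2.42 on the high-fat arrays and -2.28, -2.19 and -1.94 on chow. The diets did not overlap, but high-fat array 4 and chow array 1 lay 0.06 apart. Its means of -2.52 ± 0.16 (SD, n = 5) and -2.13 ± 0.18 (SD, n = 3) differed by -0.39 ± 0.16 (SE, 95% interval -0.74 to -0.03; limma adjusted p = 0.213). It was -0.76 with a normexp background (-0.47 relative to the median of all probes, adjusted p = 0.166) and passed when normexp and quantile normalization were combined, at -0.53 (adjusted p = 0.0294). Of 4 measured lung markers 0 passed, and their summed signal was 0.247 to 0.536 on the high-fat arrays and 0.316 to 0.459 on chow; their part in the Cyp4b1 value was not tested.

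The 4F enzymes Cyp4f1 and Cyp4f4, which inactivate leukotrienes in rodent liver, did not pass. Cyp4f1 read 6.52, 6.52, 6.46, 6.60 and 6.61 on the high-fat arrays, the narrowest range of the 10 probes at 0.15, and 6.98, 6.16 and 7.05 on chow, a range of 0.89. The high-fat values all lay inside the chow range. The means of 6.54 ± 0.06 (SD, n = 5) and 6.73 ± 0.50 (SD, n = 3) differed by -0.18 ± 0.21 (SE, 95% interval -0.67 to 0.30; limma adjusted p = 0.696), and the sign turned to 0.19 after quantile normalization. Cyp4f4 was printed in 10 spots on each array, whose SD within an array was 0.034 to 0.092 on the log2 scale. It read 4.96, 4.75, 4.76, 5.17 and 4.81 on the high-fat arrays and 5.20, 5.20 and 5.37 on chow. The diets did not overlap, but high-fat array 4 lay within 1 such SD of chow arrays 1 and 2. The means of 4.89 ± 0.18 (SD, n = 5) and 5.26 ± 0.10 (SD, n = 3) differed by -0.37 ± 0.15 (SE, 95% interval -0.71 to -0.02; adjusted p = 0.223). With array weights the Cyp4f4 difference was -0.43 and passed (adjusted p = 0.0421).

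Cyp4v3, the rat counterpart of the human enzyme whose loss causes Bietti crystalline dystrophy of the retina, was read by 2 probes with like results. Probe A_44_P355775 read 2.35, 2.15, 2.80, 2.84 and 2.26 on the high-fat arrays and 2.44, 2.55 and 2.67 on chow. Probe A_44_P297252 read 0.92, 0.74, 1.51, 1.07 and 0.77 on the high-fat arrays and 0.98, 1.34 and 1.04 on chow. On both probes high-fat array 3 lay above all chow arrays and high-fat arrays 1, 2 and 5 below them. Differences were -0.07 ± 0.20 (SE, 95% interval -0.53 to 0.39; limma adjusted p = 0.884) and -0.12 ± 0.21 (SE, 95% interval -0.59 to 0.35; adjusted p = 0.802). The gap between the probes averaged 1.48 ± 0.18 (SD, n = 5) and 1.43 ± 0.21 (SD, n = 3), a change of 0.05 (exact permutation p = 0.75; 0.75 after adjustment over the 2 genes).

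The array also measured 6 other Cyp4 genes, Cyp4f5, Cyp4f6, Cyp4f17, Cyp4f18, Cyp4f40 and Cyp4x1. Of these 0 passed in limma, and 1, Cyp4f40, had an unadjusted p under 0.05. It read 1.80 to 2.15 on the high-fat arrays and 2.27 to 2.37 on chow, without overlap (difference -0.34 ± 0.14 SE; adjusted p = 0.211). Cyp4x1, the neighbour of Cyp4a8, had a difference of -0.13 ± 0.32 (SE; adjusted p = 0.87), and Cyp4f6, the neighbour of Cyp4f1, -0.06 ± 0.20 (SE; adjusted p = 0.904).

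The steps around omega-hydroxylation gave 0 calls among 80 genes of 7 lists in limma. Of the 80, 21 had an unadjusted p under 0.05 (26.2%). That share was 17.5% over all named genes and 25.5% over those in the brightest group. Of 5 redox partners that feed electrons to P450 enzymes, 0 passed, with a median difference of -0.10; cytochrome P450 reductase, Por, was at -0.10 ± 0.17 (SE, adjusted p = 0.815). Of 8 alcohol and aldehyde dehydrogenases, which turn the hydroxy acid into a dicarboxylic acid, 0 passed, 5 were positive and the median was 0.11; the fatty aldehyde dehydrogenase Aldh3a2 was at -0.34 ± 0.15 (SE, adjusted p = 0.258). Of 17 genes of peroxisomal handling of dicarboxylic acids, 0 passed, 14 were negative and the median was -0.38. Among them Ehhadh, a bifunctional enzyme of peroxisomal beta-oxidation and like Cyp4a1 a PPAR alpha target, read 2.16, 2.24, 3.30, 2.11 and 2.14 on the high-fat arrays and 3.66, 3.53 and 3.08 on chow. High-fat array 3 alone reached the chow range; the difference was -1.03 ± 0.30 (SE, adjusted p = 0.109).

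PPAR alpha, its partner receptor Rxra and its targets gave 0 calls, 20 negative values of 25 and a median of -0.39. The median of all probes in the brightest group was -0.24. Ppara itself was at -0.39 ± 0.26 (SE, adjusted p = 0.45) and Cpt1a, the carnitine transferase of mitochondrial entry, at -0.28 ± 0.21 (SE, adjusted p = 0.501). Of 14 measured transcription factors that act on Cyp4 genes 0 passed (median 0.06), and of 7 eicosanoid epoxygenases and hydrolases 0 passed (median -0.40). After quantile normalization the medians of the peroxisomal and the PPAR alpha lists were -0.12 and -0.18, and with a normexp background they were 0.03 and 0.04 above the median of all probes.

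**Figure D4:**
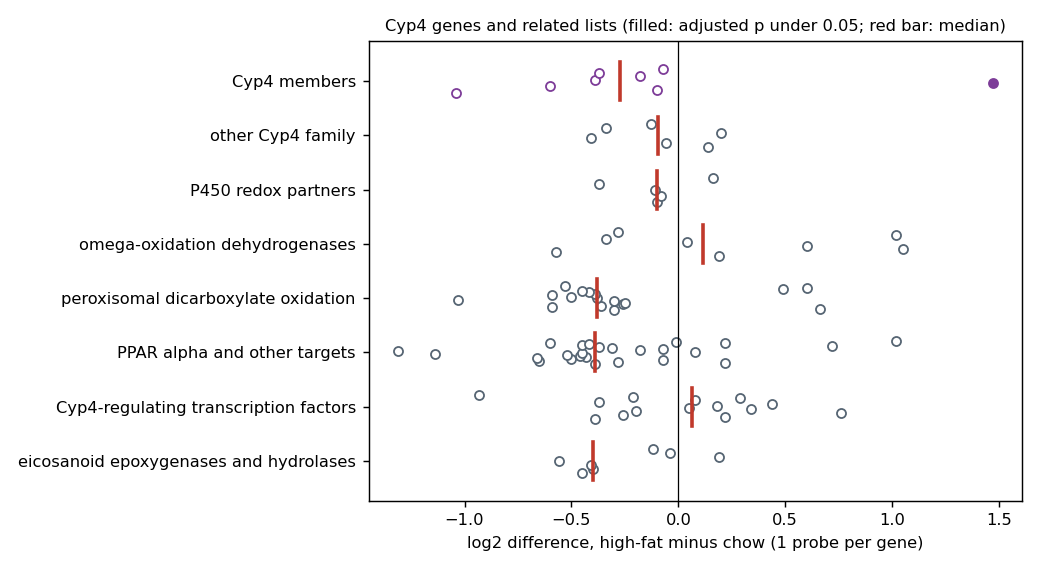
Log2 difference, high-fat minus chow (x axis), of each measured gene in the Cyp4 group and 7 related lists, 1 probe per gene; red bars are medians and filled points passed an adjusted p of 0.05. Cyp4a8 is the only filled point, and the medians run from -0.40 to 0.11.

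By likeness over the 8 arrays, after each gene's diet mean was removed, the closest of 10713 other genes above background on every array were Kynu for Cyp4a1 (Pearson r = 0.978), Commd5 for Cyp4a2 (0.954), Ino80d for Cyp4a3 (0.98), Cul9 for Cyp4b1 (0.974), Or8b46c for Cyp4f1 (0.982), Ywhae for Cyp4f4 (0.979) and Gart for Cyp4v3 (0.979). The next in order were Ift70b and Poc1a for Cyp4a1, Mtr and Dbil5 for Cyp4a2, Gstt2 and Mtarc2 for Cyp4a3, Phkb and Mrps18b for Cyp4b1, Tmem86b and Hspe1 for Cyp4f1, RT1-T24-4 and Adrm1 for Cyp4f4, and Arhgef12 and Or52h2 for Cyp4v3, with r from 0.948 to 0.977. No Cyp4 gene was among the 3 closest of another. The arrays share labelling and slides, each r was picked as the highest of many, and Cyp4a8 was left out because of its missing spot.

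**Figure D5:**
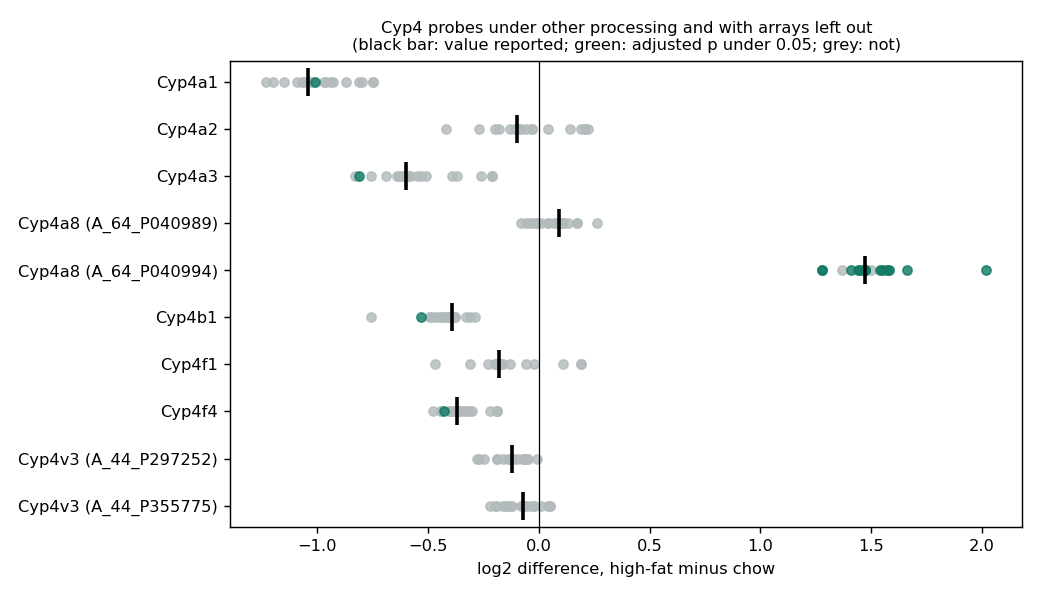
Log2 difference, high-fat minus chow (x axis), of the 10 Cyp4 probes as reported (black bars) and under other processing or with arrays left out (points; green where the adjusted p was under 0.05). The Cyp4a8 probe A_64_P040994 ranged from 1.28 to 2.02 and Cyp4a1 from -1.23 to -0.75, while the points of Cyp4a2 and Cyp4f1 fall on both sides of 0.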

How the data were processed

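The 8 scanner files come from Agilent Feature Extraction 11.0.1.1, per the submitters' processing notes. Per the file headers, they give processed intensity (background-subtracted and detrended), median intensities, and 0 or 1 marks (other values) for outlying, saturated and above-background spots. The authors' deposited value table holds log2 values, and its normalization is not given in the sources used here. Its Cyp4 differences were nearly those after quantile normalization, -0.75 with both for Cyp4a1. The Cyp4a8 probe A_64_P040994 differed most, with 1.66 against 1.57. These 2 alternatives are therefore not separate checks. Outlying spots (331 to 550 an array) were dropped, log2 spot values averaged per probe, and each array's 75th percentile subtracted. Probes went into the test where 3 or more arrays had 0.5 or more of the spots above background (25632 of 30367). RefSeq accessions (GRCr8 table) named 18005 probes. Diets were compared over all probes with limma 3.58.1 (two-sided, Benjamini-Hochberg, threshold 0.05), with no covariate; the brightest probe stood for a gene in counts. The model was tested on simulated data, where it found 18 of 100 probes with a log2 change of 1. It found 75 of 100 with a log2 change of 2, with 5 false calls. The simulated noise was normal and independent between arrays, with no slide effect, and all other probes of the 25634 were unchanged. These counts therefore do not measure the recovery or the false calls of the diet comparison itself. Changes of these sizes were missed even so, and a gene that did not pass is not shown to be unchanged. Named genes were the members, 6 fixed pathway genes (1 of them is not reported here), genes of related lists that passed, and the 3 most alike in pattern. Members and lists were chosen with earlier results of these data known. Normexp used median signals instead of the planned mean signals, which were not used here. Alternatives were other scalings, backgrounds, filters and probe choices, array weights, slide or replicate number as a block, and arrays left out. Same-numbered arrays of the diets did not deviate together (correlations 0.03 to 0.06), so numbers were not treated as pairs.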

Additional observations from a re-analysis of the deposited data

Results flagged for a closer look

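On the Cyp4a8 probe A_64_P040989, high-fat array 3 read -0.48 and the nearest of the other 4 high-fat arrays -1.0, a gap of 0.853 of the group's range, which set it apart from the rest. The same array was not the highest on the other Cyp4a8 probe. Chance marks about 1 in 20 groups this way, and 10 probes were examined.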

How the results depend on the processing

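The rise of the Cyp4a8 probe A_64_P040994 kept its direction in all 21 alternatives run and its call in 15 of them, 1 of which, slide 1 alone, rests on a single high-fat array for this probe; the cause of the 6 losses was not tested. The 884 calls over all probes became 136 with a normexp background, 2317 with that background and quantile normalization, 540 with probes above background on all arrays, 3865 with array weights, 76 with slide as a random block, and 2004 or 3161 with the high-fat arrays of slide 1 or slide 2 alone, and ran from 402 to 864 with 1 array left out. The count fell by over 1.5 times without high-fat array 2 (481) or chow array 1 (402), 2 (458) or 3 (462). The Cyp4 count of 1 probe became 2 with normexp and quantile normalization, 4 with array weights and 0 with slide as a random block (2 at an unadjusted p under 0.05), and ran from 0 to 1 with 1 array left out. With the replicate block 0 of all probes and 0 of the Cyp4 probes passed in limma (3433 and 3 at an unadjusted p under 0.05; Cyp4a8 at 1.55, adjusted p = 0.102), with few residual degrees of freedom. Among the 80 genes of related lists, 1 passed after quantile normalization, Pecr (0.79, adjusted p = 0.0149), and 5 with a normexp background added to it, namely Crot (0.64), Pecr (0.69) and Aldh1a1 (1.33) higher and Acadvl (-0.75) and Abcd3 (-0.73) lower.

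Signs turned only for differences that did not pass. Cyp4a2 was 0.21 after quantile normalization and in the authors' value table, 0.04 with normexp, 0.19 with normexp and quantile normalization, 0.22 without chow array 3 and 0.14 with slide 1 alone. With 1 array left out, Cyp4a2 ran from -0.42 to 0.22, Cyp4a8 probe A_64_P040989 from -0.02 to 0.26 and Cyp4v3 probe A_44_P355775 from -0.16 to 0.01. Cyp4f1 was 0.19, 0.19 and 0.11 with quantile normalization, the authors' value table and normexp with quantile normalization. Cyp4v3 probe A_44_P355775 was 0.05 with quantile normalization and in the authors' value table, 0.01 without high-fat array 2 and 0.04 with slide 1 alone. Cyp4a8 probe A_64_P040989 was -0.06 with normexp, -0.01 with normexp and quantile normalization, -0.08 with array weights, -0.02 without high-fat array 3, -0.01 without chow array 3 and -0.04 with slide 1 alone. With normexp the median of all probes was -0.30. Normexp and the outlier spots kept were chosen after seeing the data. All 10 Cyp4 probes were above background on every array, but Cyp4b1 moved from -0.39 to -0.76 with normexp (-0.47 relative to that median).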
